A study of Mus musculus with 4 samples.

Results

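Microglia-like cells were 301 of the 6509 cells of 4 medulloblastomas profiled one cell at a time. They were chosen by their transcripts: a mean deposited log2 value of C1qa, C1qb and C1qc of at least 2, and at least 2 of the 4 genes Tmem119, P2ry12, Cx3cr1 and Gpr34 detected, that is with a value above 0. The 4 tumours formed 1 group, all from mice of the genotype Ptch1+/- that had been irradiated at birth and that received no treatment, and they were taken at end point. Numbers 1 to 4 come from the labels, which leave unsaid whether each tumour came from its own mouse, so the p-values below measure only the spread between these samples, which may be technical. Suspensions had been frozen viably and thawed with DNase, and live cells were sorted before capture on the 10x platform, so shares below are shares of the sorted cells. With no second group, cells were compared within tumours.

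Medulloblastoma of the Sonic hedgehog kind arises from granule neuron progenitors of the cerebellum, and Ptch1 encodes the receptor that holds that pathway off. Microglia are the resident macrophages of the brain: they seed it from the yolk sac before birth, renew themselves there, and depend on the receptor encoded by Csf1r and on TGF-beta for their identity. Macrophages that derive from blood monocytes can enter a brain tumour and take on part of the same program. C1qa, C1qb and C1qc encode the 3 chains of complement C1q, which macrophages of both origins make. Tmem119 is a membrane protein, P2ry12 an ADP receptor, Cx3cr1 the fractalkine receptor and Gpr34 a lysophosphatidylserine receptor, all used as microglia markers. Cx3cr1 is also made by some monocytes.

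C1qa, C1qb and C1qc lie side by side on chromosome 4, at 136895916 to 136898844, 136880126 to 136886200 and 136889801 to 136892936 in GRCm38.p6, and were high together in the members by choice. Fcrls, on chromosome 3 at 87250736 to 87263765, encodes an Fc receptor-like scavenger protein of microglia and had the lowest adjusted p in both comparisons below as first set. The promoters of C1qb, C1qc and Fcrls, genes high in the same cells, are shown, and of the windows found they are those that hold the letters marked below. Each is 300 bases, from 250 before the start set for the window to 50 after it, on GRCm38.p6, read 5′ to 3′ on the gene's own strand. That start is the outer end of the gene position above for C1qb and lies a little inside it for C1qc. For Fcrls it lies further inside, so most of the Fcrls window, with its marked letters, is within the gene as placed above. Capitals mark GAGGAA or its reverse complement TTCCTC, the core letters bound by PU.1, the macrophage transcription factor encoded by Spi1. Of 8 genes looked up, 5 matched an entry.
C1qb, chr4:136886151-136886450, minus strand: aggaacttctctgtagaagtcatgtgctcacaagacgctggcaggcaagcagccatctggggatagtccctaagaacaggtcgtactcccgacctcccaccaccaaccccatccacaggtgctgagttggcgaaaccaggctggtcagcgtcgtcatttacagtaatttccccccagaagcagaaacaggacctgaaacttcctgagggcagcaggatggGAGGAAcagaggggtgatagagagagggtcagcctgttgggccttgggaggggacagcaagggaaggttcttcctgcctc
C1qc, chr4:136892865-136893164, minus strand: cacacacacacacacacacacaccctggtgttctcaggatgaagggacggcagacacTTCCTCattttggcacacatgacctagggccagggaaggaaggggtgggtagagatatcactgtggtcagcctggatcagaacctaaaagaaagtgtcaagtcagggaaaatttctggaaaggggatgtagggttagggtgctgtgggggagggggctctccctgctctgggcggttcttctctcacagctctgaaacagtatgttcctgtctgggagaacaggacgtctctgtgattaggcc
Fcrls, chr3:87263475-87263774, minus strand: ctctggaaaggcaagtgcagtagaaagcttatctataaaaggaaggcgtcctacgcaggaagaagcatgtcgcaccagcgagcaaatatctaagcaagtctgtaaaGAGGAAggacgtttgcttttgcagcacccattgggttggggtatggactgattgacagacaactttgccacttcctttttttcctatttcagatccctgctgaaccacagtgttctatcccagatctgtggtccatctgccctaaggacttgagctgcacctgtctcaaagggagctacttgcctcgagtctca
Each of these 3 windows held the 6 letters once, whereas the windows of P2ry12 and Cx3cr1, which are also genes of the rule, held none and are not shown. On either strand, 28.3% of 32851 promoters of this length held them, so a match is common and describes the letters only.

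The 4 libraries held 798 to 2589 cells and 10458431 to 23439893 unique molecular identifiers (UMIs, each counted as 1 captured transcript). The median cell had 6799 to 15283.5 UMIs. Tumour 1 was the deepest per cell, and its file listed 33219 genes against 13622 to 15359 in the others, where a gene that is not listed was taken as not detected. Pairs of libraries shared 0 to 7 cell barcodes. Levels below are in CPM: the UMIs of a gene summed over the cells of a class in a tumour and scaled to one common total.

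Tumour 4 was the richest in microglia-like cells and tumour 3 the poorest. They were 36 of 798 cells in tumour 1, or 4.51% (3.18% to 6.19%, exact Clopper-Pearson 95% interval, here and below for counting error only). Tumour 2 had 47 of 2589, or 1.82% (1.34% to 2.41%), and tumour 3 had 9 of 1229, or 0.732% (0.335% to 1.39%). Tumour 4 had 209 of 1893, or 11.04% (9.66% to 12.5%), so 209 of all 301 members came from 1 tumour and its interval did not meet those of the others. The members held 2.96%, 1.72%, 0.658% and 12.9% of the UMIs of tumours 1 to 4. How much live sorting and thawing set these shares cannot be told apart from the tumours' own content.

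Of all cells with high C1q, more than 68% passed the second criterion in each tumour. C1q cells, those with the mean value of at least 2, numbered 52, 61, 12 and 306. The share that was microglia-like was 69.2% (54.9% to 81.3%), 77.0% (64.5% to 86.8%), 75% (42.8% to 94.5%) and 68.3% (62.8% to 73.5%) in tumours 1 to 4, with overlapping intervals. Those with exactly 1 of the 4 microglia genes numbered 11, 11, 3 and 77, and those with none 5, 3, 0 and 20. The latter, C1q macrophages without any of the 4 genes, were 28 cells in all, too few in 3 tumours for a test planned against them. Their 0 of 1229 cells in tumour 3 allows a share of up to 0.244%, taken as 3 counts of the total and not as an exact interval.

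**Figure D1:**
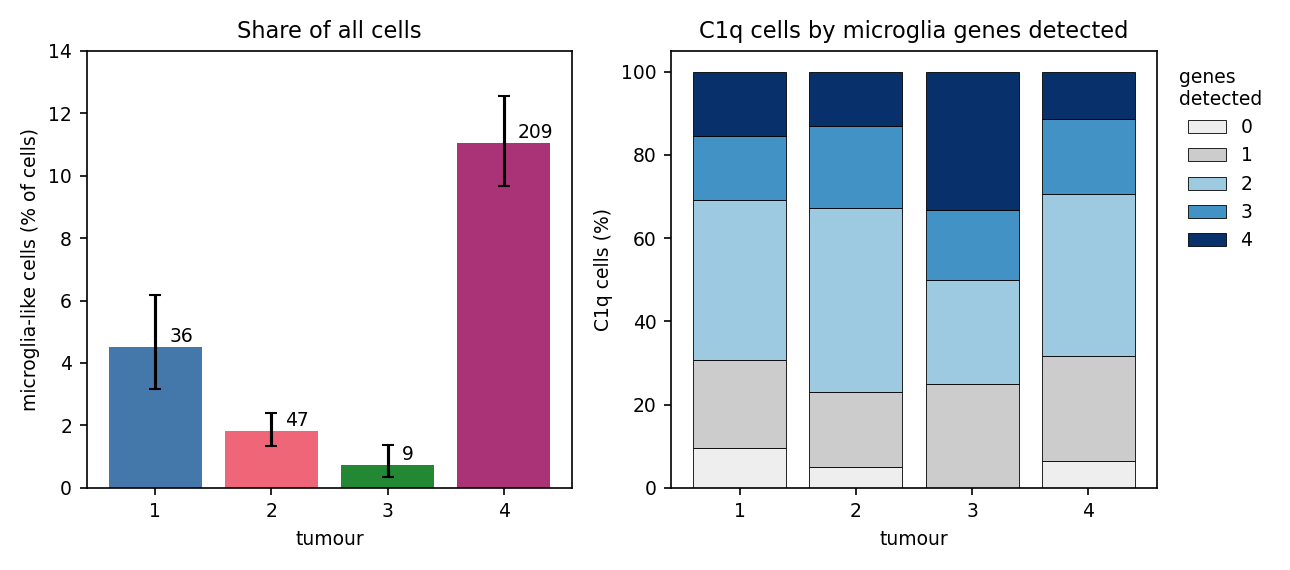
Left, microglia-like cells as a percentage of all cells of tumours 1 to 4, with bars for the exact 95% interval and the number of cells beside each. Right, C1q cells of each tumour split by how many of Tmem119, P2ry12, Cx3cr1 and Gpr34 were detected. Tumour 4 stands highest at 11.04% and tumour 3 lowest at 0.732%, while cells with 2 or more of the genes made up 68.3% to 77.0% of the C1q cells in every tumour.

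The C1q threshold cut a sparse zone, and the detection of the 4 microglia genes a dense one. Among cells with at least 2 microglia genes, 10 members had a C1q mean from 2 to 2.5 and 14 cells just outside had one from 1.5 to 2. The lowest member stood at 2.53, 2.11, 4.29 and 2.02 in tumours 1 to 4, and the median member at 7.24, 5.67, 5.74 and 5.64. Members with exactly 2 of the 4 genes numbered 20, 27, 3 and 119, those with 3 of them 8, 12, 2 and 55, and those with all of them 8, 8, 4 and 35. The most frequent pattern was Tmem119 with Cx3cr1 alone, in 106 members. The second criterion was also applied at equal depth. With cells thinned to 6200 UMIs and the rule applied again, the share of C1q cells was 47.8%, 78.6%, 71.4% and 52.9% in tumours 1 to 4, lower than the unthinned share by more in tumours 1 and 4 than in tumour 3, and not lower in tumour 2.

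The genes of the rule are a description of the choice and were not tested. C1qa stood at 4216, 5489, 6905 and 4423 CPM in tumours 1 to 4, C1qb at 3632, 5823, 7632 and 5489 CPM, and C1qc at 2887, 3918, 6135 and 3184 CPM. Tmem119 was at 181, 287, 189 and 205 CPM. P2ry12 was at 95.6, 84.3, 436 and 115 CPM, with tumour 3 far above the others. Cx3cr1 was at 428, 335, 581 and 515 CPM, and Gpr34 at 66.0, 71.9, 233 and 88.9 CPM. Tumour 3 was the highest for all except Tmem119, but its values rest on 9 cells, where 1 UMI is 14.5 CPM.

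Members carried further microglia genes that the rule did not use. The members had median depths of 11668, 7859, 8414 and 11281 UMIs, and the other cells 15708, 7728, 6799 and 7352.5. Fcrls was at 504, 741, 1919 and 417 CPM, and 69.5%, 89.5%, 89.2% and 82.1% of all its UMIs in tumours 1 to 4 lay in the members. Olfml3, a secreted olfactomedin protein of microglia, was at 306, 260.2, 189 and 198 CPM. The 4 tumours were within a narrow range for it, and tumour 3 was not among the high ones.

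Genes held to separate microglia from other macrophages most sharply were sparse or uneven. Sall1, the transcription factor that keeps microglial identity, was at 10.4, 0, 14.5 and 4.68 CPM, with a UMI in 5 of 36, 0 of 47, 1 of 9 and 10 of 209 members. Cells outside the class had a Sall1 UMI in 11.3%, 2.83%, 2.13% and 0.891%. Among cells thinned to 6200 UMIs, a Sall1 UMI was left in 3 of 36, 0 of 37, 0 of 5 and 5 of 167 members, and in 2.23%, 1.99%, 1.31% and 0.521% of the other cells. The members' thinned shares were thus 8.33% in tumour 1 and 2.99% in tumour 4, above the other cells there, on 3 and 5 cells. In tumour 4 the unthinned share of members was 4.78%, and the neutrophil-like cells of that tumour (267 cells, median 4105 UMIs) had it in 0. Siglech, a lectin of microglia and of plasmacytoid dendritic cells, was at 45.2, 0 and 52.3 CPM in tumours 1, 2 and 4 and was not listed in tumour 3. Its UMIs came from 5 of 36 members in tumour 1 and 34 of 209 in tumour 4, and from 0 of 47 in tumour 2.

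The other transcripts of resting microglia followed the tumours in different ways. Sparc, a matricellular protein, was at 238, 9.91, 436 and 255 CPM, low in tumour 2 alone. P2ry13, a second ADP receptor and the neighbour of P2ry12 on chromosome 3, was at 62.6, 47.1, 145 and 40.4 CPM. Rnase4, a secreted ribonuclease, was at 222, 233, 436 and 236 CPM. The 25 genes of the list for resting (homeostatic) microglia summed to 11676, 10861, 21137 and 12100 CPM. Cst3, the protease inhibitor cystatin C, was its most abundant member in each tumour, at 5324, 4349, 9129 and 5291 CPM.

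The members also held transcripts typical of macrophages that come from monocytes. Ccr2, the receptor that draws monocytes into tissue, was at 97.3, 173 and 508 CPM in tumours 1, 2 and 4 and was not listed in tumour 3. It had a UMI in 16 of 36, 20 of 47, 0 of 9 and 150 of 209 members. Thinned to 6200 UMIs, that was 33.3% of 36, 40.5% of 37, 0 of 5 and 73.7% of 167 members. Neutrophil-like cells of tumour 4, which should lack the gene, had a Ccr2 UMI in 9.74% (thinned 22.6% of 31 cells), and all cells outside the class in 10.2%, 2.87%, 0 and 30.9% of tumours 1 to 4. The shares in members of tumours 1, 2 and 4 were above each of these.

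Tgfbi, a matrix protein made by monocyte-derived macrophages, was at 490.1, 843, 363 and 1699 CPM, and was highest in tumour 4, as Ccr2 was. Lyz2, the myeloid lysozyme, was at 13091, 16412, 14087 and 12956 CPM. Crip1, a small LIM protein, was at 687, 216, 349 and 612 CPM. The 23 genes of the monocyte-derived list summed to 15778, 18617, 15991 and 18414 CPM, most of it Lyz2, and this list did not separate the tumours as Ccr2 did.

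Of 20 genes of border and perivascular macrophages, the sum was 1469, 2986, 2733 and 2361 CPM. Ms4a7, a tetraspan protein of those cells that is low in resting microglia, was the most abundant of them on average, at 375, 1745, 1454 and 882 CPM. Mrc1, the mannose receptor, was at 27.8, 12.4 and 11.9 CPM in tumours 1, 2 and 4 and had a UMI in 32 of 301 members. Cd163, the haemoglobin scavenger receptor that defines perivascular macrophages, had a UMI in 1 of 301 members, and Lyve1 in 0. Ms4a7 was thus present in all 4 tumours, with Mrc1 in a minority of members and Cd163 and Lyve1 nearly absent.

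**Figure D2:**
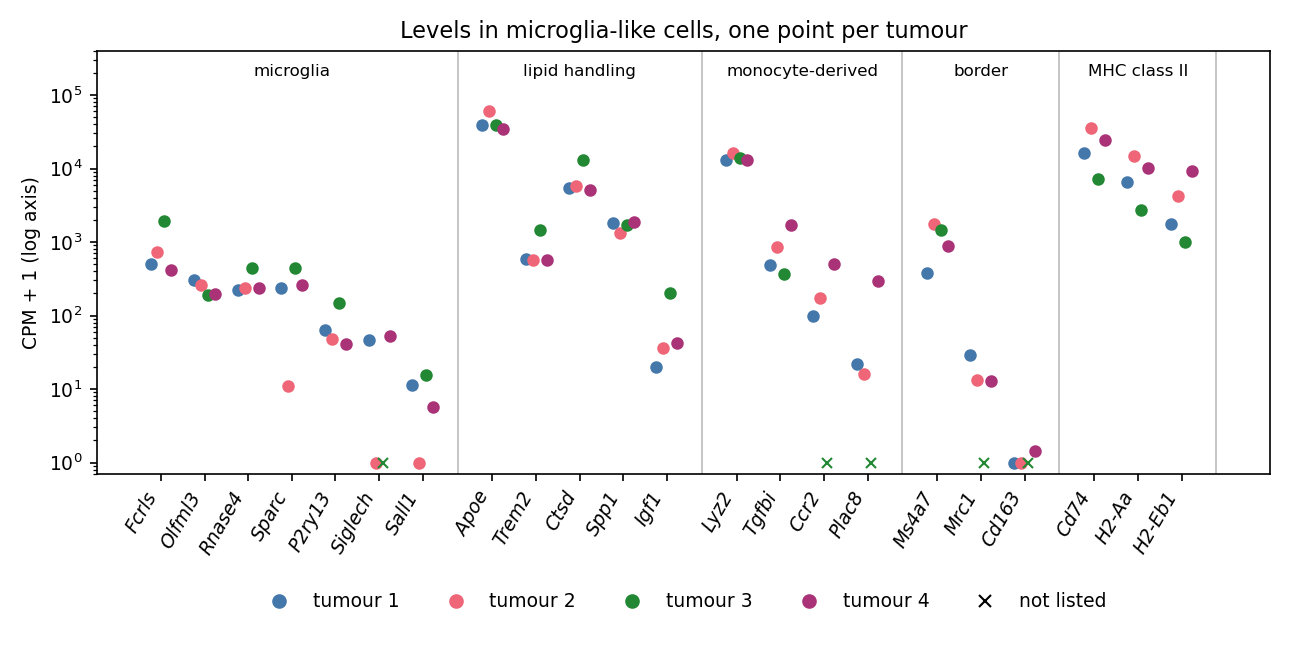
Level in microglia-like cells (CPM + 1, log axis) of genes of resting microglia, lipid handling, monocyte-derived macrophages, border macrophages and MHC class II, with 1 point per tumour and a cross where a file does not list the gene. Lyz2 and Apoe lie close together over the tumours, whereas Sparc drops in tumour 2 (9.91 CPM) and Ccr2 runs from 97.3 to 508 CPM in the 3 tumours that list it.

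Cells with more of the 4 microglia genes differed in other genes too. These splits use the genes of the rule and are given as a description with no test, and the genes shown were chosen after their values were seen. From cells with 0 to cells with all 4 of the genes, Fcrls in tumour 4 went through 198, 95.5, 234, 551 and 834 CPM. In tumour 1 the same steps gave 115, 103, 286, 450.3 and 1191 CPM, and in tumour 2 they gave 191, 222, 569, 884 and 1076 CPM. Fcrls was thus at 286, 569, 431 and 234 CPM in members with 2 of the genes and at 1191, 1076, 2709 and 834 CPM in members with all 4, higher in the latter in each tumour. Trem2 was at 472, 483, 517 and 357 CPM with 2 genes and at 881, 867, 2026 and 1010 CPM with 4, also higher in each. Members with 4 genes had median depths of 11233.5, 8028, 11148 and 8843 UMIs, and members with 2 had 11481, 7904, 8699 and 11007, so depth was lower with 4 genes in tumours 1 and 4 and higher in tumours 2 and 3.

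Ccr2 and Tgfbi were lower in members with all 4 genes than in members with 2 in most tumours, with no steady fall over the steps. From 0 to 4 genes in tumour 1, Tgfbi was at 98.3, 611, 538, 797 and 75.5 CPM and Ccr2 at 16.4, 103, 132, 84.4 and 8.39 CPM. In tumour 2 the same steps gave 76.3, 612, 158, 183 and 209 CPM for Ccr2. Ccr2 was at 132, 158 and 629 CPM in members with 2 microglia genes of tumours 1, 2 and 4, and at 8.39, 209 and 235 CPM in members with all 4. Tgfbi was at 538, 1003, 689 and 2083 CPM with 2 genes and at 75.5, 659, 228 and 707 CPM with 4. Both genes were lower with 4 microglia genes in tumours 1 and 4, while in tumour 2 Ccr2 was not.

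Levels of Cd74 also differed between members with 2 and with all 4 of the genes, and tumour 2 stood apart. Cd74, the chaperone of class II molecules, was at 18671, 40840, 19810 and 27031 CPM in members with 2 microglia genes and at 973, 37185, 836 and 14005 CPM in members with 4. The 19810 CPM of tumour 3 came from 1 of 3 cells. Under 2000 CPM of Cd74 in the single cell, a limit chosen after the values were seen, were 7 of 8, 0 of 8, 4 of 4 and 23 of 35 members with 4 genes. Among members with 2 genes they were 4 of 20, 3 of 27, 2 of 3 and 16 of 119. The median member with 4 genes had 260.3, 29175, 484 and 661 CPM of Cd74, so most such cells were under that limit in tumours 1, 3 and 4 and none was in tumour 2. With 3 genes the median was 24441, 30097 and 28611 CPM in tumours 1, 2 and 4, against 32868, 49720 and 26564 CPM with 2. In tumours 1 and 4 the median was thus low only in members with 4 genes. H2-Aa, the alpha chain of a class II molecule, and Ccr2 had UMIs together in 98 of 119 members with 2 genes in tumour 4, and in 13 of 35 with 4.

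**Figure D3:**
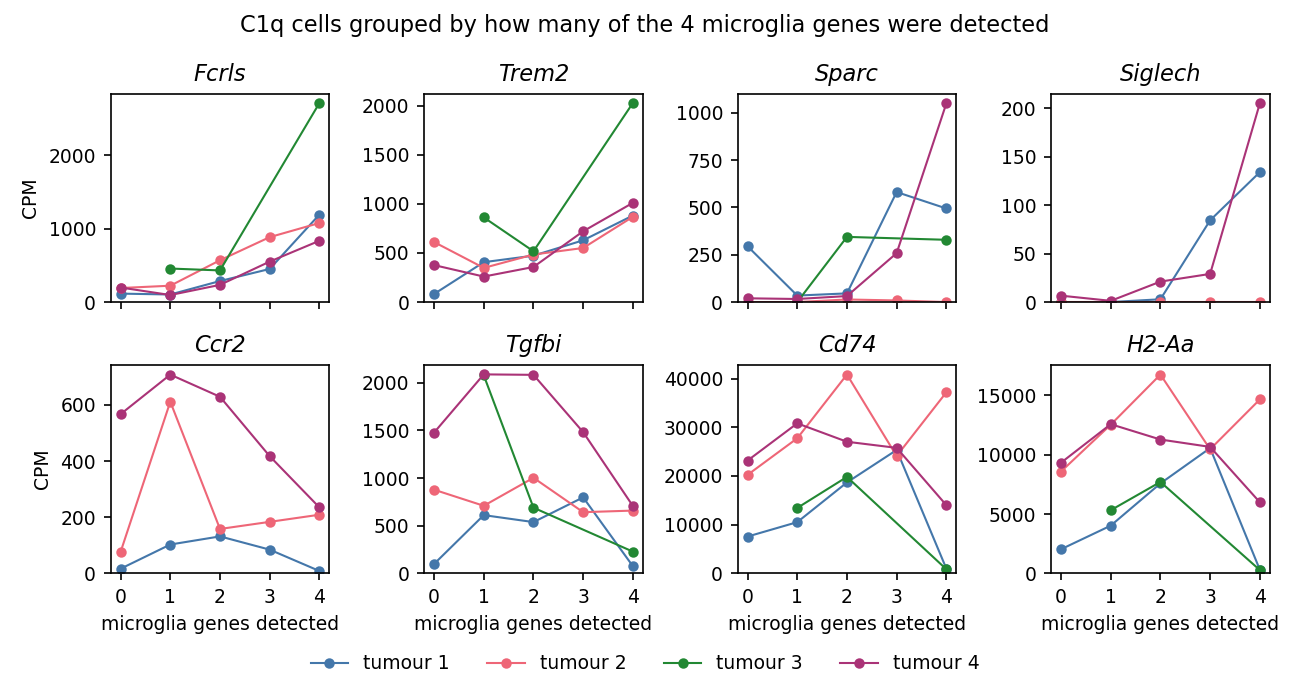
Level (CPM) of 8 genes in C1q cells grouped by how many of Tmem119, P2ry12, Cx3cr1 and Gpr34 were detected, with 1 line per tumour, for groups of at least 3 cells. Fcrls climbs to 834 CPM at 4 genes in tumour 4, while Cd74 there ends at 14005 CPM and in tumour 1 at 973 CPM. The line of tumour 2 stays high for Cd74.

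Genes of lipid handling and phagocytosis, switched on in microglia around damage and debris, were abundant in the members. Apoe, the lipid carrier, was at 38668, 60667, 39439 and 34604 CPM, and the members held 56.0%, 69.0%, 35.6% and 61.1% of all Apoe UMIs of tumours 1 to 4. Trem2, the lipid receptor that drives this state, was at 586, 563, 1454 and 561 CPM, and the members held 63.6% to 78.7% of its UMIs. Tyrobp, its signalling adaptor, was at 2113, 3216, 4085 and 3558 CPM. Ctsd, the lysosomal protease cathepsin D, was at 5390, 5816, 13214 and 5159 CPM. Ctsd and Trem2 were alike in tumours 1, 2 and 4 and more than doubled in the 9 cells of tumour 3.

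Spp1, the secreted phosphoprotein osteopontin, was even over tumours on average and uneven over cells. It was at 1816, 1323, 1686 and 1867 CPM, from a UMI in 207 of 301 members. Gpnmb, a glycoprotein of lipid-laden macrophages, was at 60.8, 235, 0 and 93.2 CPM. In tumour 3 Gpnmb had 0 UMIs in members, at 14.5 CPM for 1 UMI. The 26 lysosomal genes summed to 34874, 48163, 62117 and 38924 CPM. Fcer1g, the gamma chain of Fc receptors, was at 2207, 4151, 2820 and 4012 CPM and led the 26 complement and phagocytic receptor genes.

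Class II antigen presentation genes varied more between tumours than class I genes did. Cd74 was at 16238, 35302, 7181 and 24629 CPM, and H2-Aa at 6629, 14568, 2762 and 10279 CPM. In tumour 3 these values rest mostly on 1 cell, a member with 2 microglia genes that held 460 Cd74 and 179 H2-Aa UMIs. Members there with 3 and with 4 genes held 1 and 33 Cd74 UMIs, and 0 and 11 H2-Aa UMIs. The 11 class II genes summed to 31288, 70284, 14857 and 57014 CPM, with tumours 2 and 4 above tumours 1 and 3. In tumour 3 that sum includes the Cd74 and H2-Aa UMIs of the 1 cell above. B2m, the light chain of class I molecules, was at 2986, 6123, 4114 and 4635 CPM, and the 18 class I genes summed to 8421, 14858, 11252 and 10481 CPM. H2-Aa UMIs were also found in 57.7% of the neutrophil-like cells of tumour 4, at 448 CPM, against 94.7% of the members there. The neutrophil-like cells were shallower, with a median of 4105 UMIs, and 236 of the 267 had too few UMIs to be thinned to 6200. Among the 31 that were left, the deepest of them, the thinned share was 83.9%, against 97.0% of 167 members. The share in those 31 does not stand for all neutrophil-like cells.

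The members held most UMIs of some secreted factors and a smaller share of others. Ccl12, a ligand of Ccr2, was at 461, 208 and 140.4 CPM in tumours 1, 2 and 4, and members held 87.2% (82.9% to 90.7%), 92.3% (84.8% to 96.9%) and 88.5% (84.8% to 91.5%) of its UMIs there. Ccl12 came from few cells, with a UMI in 76 of 301 members. Igf1, a growth factor that acts on neural progenitors, was at 19.1, 34.7, 204 and 41.7 CPM. Members held 40.7% (22.4% to 61.2%), 73.7% (48.8% to 90.9%), 82.4% (56.6% to 96.2%) and 71.0% (62.7% to 78.4%) of the Igf1 UMIs, far above their 0.658% to 12.9% of all UMIs.

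Cxcl16, a transmembrane chemokine, was at 388, 753, 712 and 482 CPM, with 44.3%, 54.0%, 73.1% and 40.2% of its UMIs in members. Grn, the lysosomal factor progranulin, was at 1038, 1484, 1992 and 1234 CPM, with 22.8% to 42.7% in members. Psap, which encodes prosaposin, was at 3236, 6103, 3969 and 3706 CPM. By contrast Il1b, an inflammatory cytokine, had 6.50%, 23.7% and 7.13% of its UMIs in members of tumours 1, 2 and 4. The members held 2.96%, 1.72% and 12.9% of all UMIs there, so the Il1b share was above that in tumours 1 and 2 and below it in tumour 4. Il1b stood at 41.7, 164 and 405 CPM in members of these tumours, against 4303 CPM in neutrophil-like cells of tumour 4. Bdnf and Fgf1 had 0 UMIs in members of all 4 tumours.

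**Figure D4:**
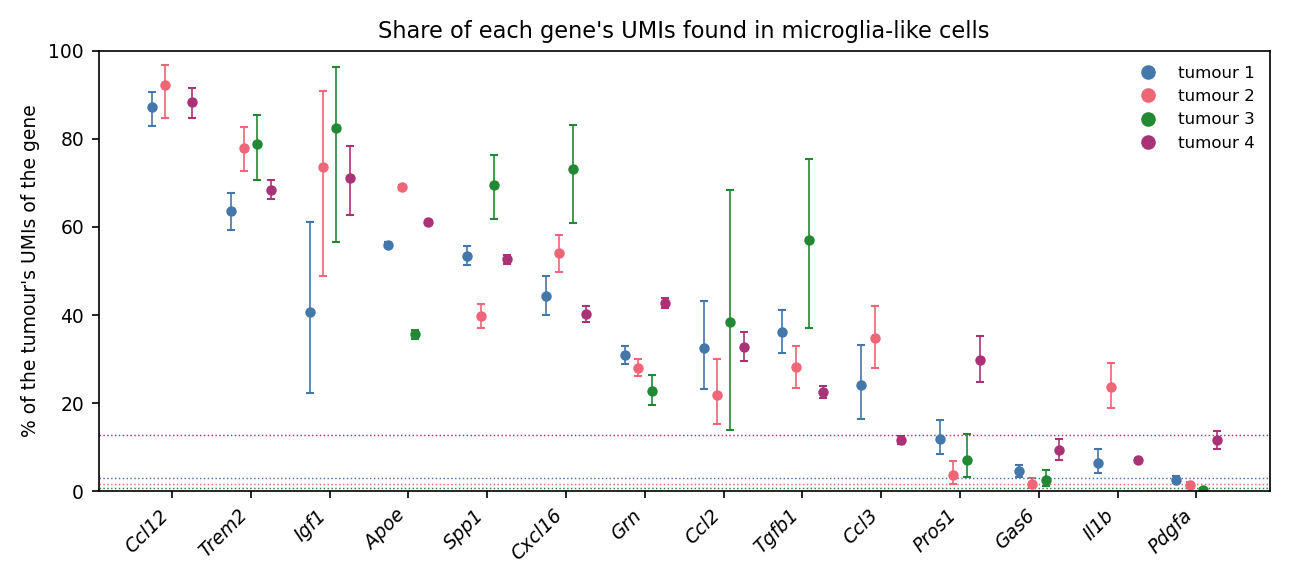
Percentage of each gene's UMIs in a tumour that lay in microglia-like cells, with the exact 95% interval, and dotted lines at the members' share of all UMIs (0.658% to 12.9%). Ccl12 is at 87.2% to 92.3% in the 3 tumours that list it and Trem2 at 63.6% to 78.7%, while Il1b in tumours 1 and 4 lies at 6.50% and 7.13%.

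The receptor and factors that sustain microglia were present in every tumour. Csf1r was at 523, 538, 959 and 723 CPM and had a UMI in 291 of 301 members. Tgfb1, the TGF-beta ligand, was at 249, 250.3, 233 and 349 CPM. Spi1 was at 309, 451, 494 and 411 CPM, and Irf8, an interferon regulatory factor needed by microglia, at 243, 394, 422 and 329.8 CPM. Ly86, the partner of a toll-like receptor homologue, led the 29 genes of the microglial sensing list at 671, 902, 1148 and 953 CPM. The 20 genes of CSF1 receptor and TGF-beta signalling summed to 3551, 4882, 6047 and 5639 CPM, the 27 myeloid transcription factors to 1976, 2200.5, 2166 and 2802 CPM, and the 17 checkpoint genes to 1109, 1365, 1163 and 1488 CPM.

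Transcripts of division were found in a smaller share of members than of the other cells. Mki67, a marker of cycling cells, had a UMI in 6 of 36, 4 of 47, 3 of 9 and 17 of 209 members, and in 57.9%, 39.5%, 45.2% and 17.9% of the other cells. At 6200 UMIs it was left in 3 of 36, 0 of 37, 2 of 5 and 7 of 167 members. At least 5 of 20 mitosis genes were detected in 7, 3, 3 and 9 members, and at least 10 of 20 in 6, 3, 1 and 4. Neutrophil-like cells of tumour 4, which do not divide when mature, passed the limit of 10 in 4 of 267, beside the 4 of 209 in members there. The mitosis genes summed to 1128, 644, 1483 and 312 CPM and the 20 replication genes to 852, 607, 858 and 369 CPM. Granule lineage markers were also lowest in tumour 4, at 972, 627, 654 and 185 CPM, with Tubb3 at 113, 136, 43.6 and 23.4 CPM, and their part in the counts of dividing members was not tested.

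Stress and other lineages left smaller traces. The 24 immediate early and handling stress genes summed to 5025, 6031, 2718 and 8712 CPM, with Fos, an immediate early factor, at 129, 540.2, 29.1 and 874 CPM. Interferon response genes, 25 in all, summed to 1349, 2820, 1294 and 2910 CPM. Neutrophil markers summed to 130.4, 84.3, 29.1 and 852 CPM. In tumour 4, S100a8, a granule protein of neutrophils, had a UMI in 90.9% of members and in 89.8% of all other cells, nearly the same share in both. At least 3 markers of 1 other lineage (granule lineage, neutrophils, T and NK cells or B cells) were detected in 8 of 36, 9 of 47, 1 of 9 and 141 of 209 members, the share being highest in tumour 4. Without such cells in either class, the comparison with other C1q cells below called 33 genes, of which 15 were among the 32, and that with monocyte-like cells 703. Of the marker lists, T and NK cells stood at 0 to 62.6 CPM, B cells at 43.6 to 124, dendritic cells at 407 to 500, of which most was Bst2, astrocytes at 50.6 to 131, oligodendrocyte lineage at 72.7 to 93.6, endothelium at 2.48 to 14.5, mural cells and fibroblasts at 0 to 8.69, and erythroid cells at 0 to 0.426 CPM.

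To ask which other genes went with the microglia genes, the members were set against the C1q cells that held 0 or 1 of the 4 genes, 16, 14 and 97 cells in tumours 1, 2 and 4. Tumour 3 had 3 such cells and was left out. This comparison replaced the planned one after the cell numbers were seen, and it left out the 7 genes of the rule, which cut the classes, and tested the other genes of the same cells. Other genes that go with the 4 microglia genes can differ through this cut itself, and how far they did was not tested. Fcrls, Olfml3, Rnase4, Sparc, Cst3 and Cd81 were higher in the members, and the chemokine gene Ccl6 and the chitinase-like Chi3l3 were lower. With the tumour as a block, limma called 32 of 9949 genes (0.322%) at an adjusted p under 0.05, 26 of them higher (0.261%) and 6 lower (0.0603%). Differences below are in log2(CPM + 10), which understates changes of low genes, and each p is adjusted over all genes by limma.

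Fcrls was at 504, 741 and 417 CPM in members of tumours 1, 2 and 4 and at 105, 214 and 112 CPM in the other C1q cells. It was higher in each tumour, by 1.90 ± 0.19 on average (SE, adjusted p = 6.05e-07). Olfml3 was higher by 1.36 ± 0.22 (adjusted p = 0.00143), from 75.3, 143 and 71.0 CPM to 306, 260.2 and 198 CPM. Of the 25 homeostatic genes 22 were tested, 7 were higher and 0 lower, and their median difference was 0.76 against 0.02 over all genes. In 15 of the 22 the difference was positive in all 3 tumours, as in 14.4% of all genes. The classes were cut by microglia genes, and how much of this follows from that cut was not tested.

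Other genes higher in the members included metal binding, antioxidant and secreted proteins. Mt2, a metallothionein, was at 88.6, 39.6 and 49.4 CPM against 3.77, 0 and 8.35 CPM, a difference of 2.28 ± 0.33 (adjusted p = 0.000294), and its relative Mt1 was higher by 0.83 ± 0.19 (adjusted p = 0.0422). Ccl7, a monocyte-attracting chemokine, was at 41.7, 114 and 20.9 CPM against 3.77, 10.2 and 9.39 CPM (1.73 ± 0.35, adjusted p = 0.0178). Il18bp, the decoy that binds interleukin-18, was at 108, 112 and 85.1 CPM against 15.1, 40.8 and 59.5 CPM (1.31 ± 0.29, adjusted p = 0.0422). For these genes each tumour went the same way, with tumour 4 showing the smallest difference. Plxdc2, Gpx3, which encodes a secreted glutathione peroxidase, Tmem176a and AW112010 were higher by 1.40, 1.39, 1.16 and 1.14. Sepp1, the selenium carrier, was higher by 1.03 and Aif1, the microglia and macrophage protein Iba1, by 0.78, both chosen for mention after their values were seen.

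The genes lower in the members were 6. Ccl24, an eosinophil-attracting chemokine, was at 3.48, 2.48 and 9.36 CPM against 11.3, 91.7 and 96.0 CPM (-2.05 ± 0.38, adjusted p = 0.00997). Without the cells that held at least 3 markers of 1 other lineage, its difference was 0.17, in the other direction. Ccl6 was at 176, 84.3 and 184 CPM against 471, 295 and 419 CPM (-1.40 ± 0.19, adjusted p = 0.000285). Chi3l3 was at 10.4, 57.0 and 188 CPM against 75.3, 122 and 305 CPM (-1.24 ± 0.26, adjusted p = 0.0239). Lgals3, the lectin galectin-3, was at 405, 999 and 719.6 CPM against 606, 1987 and 1381 CPM (-0.83 ± 0.15, adjusted p = 0.00764). Ifitm1, an interferon-induced membrane protein, and Hes1, a Notch target, differed by -1.41 and -1.30. Of the monocyte-derived list, 21 genes were tested, 0 were higher and 1, Chi3l3, was lower, with a median of -0.60.

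**Figure D5:**
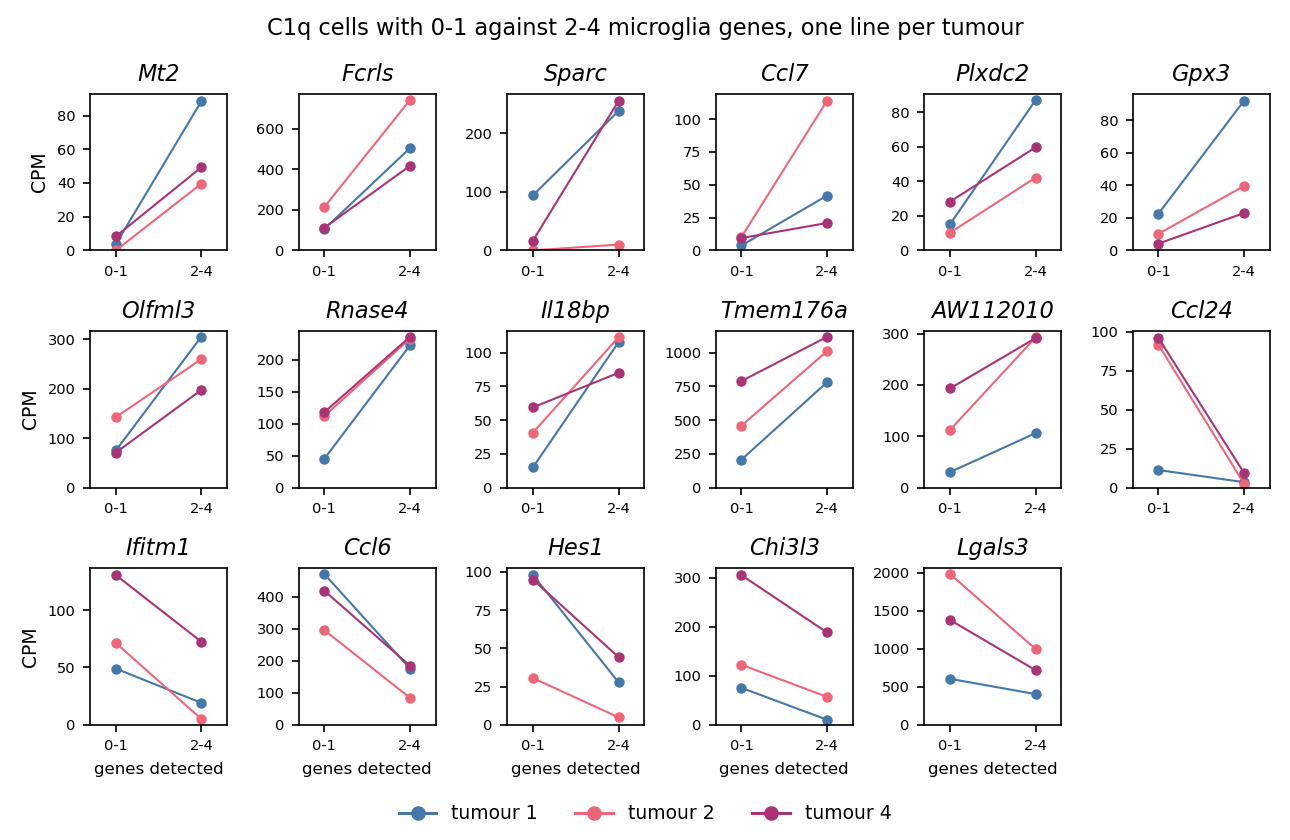
Level (CPM) of 17 named genes in C1q cells with 0 or 1 of the 4 microglia genes (left of each panel) and in microglia-like cells with 2 to 4 (right), with 1 line per tumour for tumours 1, 2 and 4. All lines of the first 11 genes rise and all lines of the last 6 fall, for Fcrls from 105 to 504 CPM in tumour 1 and for Ccl6 from 471 to 176 CPM.

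Most other gene groups held few calls in this comparison. Of 27 lipid-handling genes tested, Apoe (0.57 ± 0.09, adjusted p = 0.00103) and Apoc1 were higher and Lgals3 was lower, with a median of 0.31. Trem2 was at 586, 563 and 561 CPM against 331, 418 and 278 CPM, above in each tumour, with an adjusted p of 0.0547. Ccl12 was at 461, 208 and 140.4 CPM against 11.3, 50.9 and 18.8 CPM (2.90 ± 0.45, adjusted p = 0.0547). Of 26 lysosomal genes 2 were higher, Cst3 among them, with a median of 0.38, and of 24 sensing genes 1, Ly86 (0.79 ± 0.16). Cbr2, a carbonyl reductase, was the 1 called of 14 border macrophage genes, and Ccl7 and Ccl6 were the 2 called of 17 cytokine genes. Spp1 and Ccr2 had differences of mixed sign over the tumours, at -0.52 (adjusted p = 0.805) and -0.53 (adjusted p = 0.689), and Csf1r differed by 0.46 (adjusted p = 0.575).

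No gene was called among 11 class II genes (median 0.18), 17 class I genes (0.14), 21 interferon genes (-0.10), 24 complement and phagocytic genes (0.18), 12 growth factor genes (0.37), 18 CSF1 receptor and TGF-beta genes (0.12), 24 transcription factors (0.18), 15 checkpoint genes (0.21), 19 mitosis genes (0.42), 19 replication genes (-0.23) or 23 stress genes (0.06). Across all genes, 702 had an unadjusted p under 0.05. Median depths were 11668, 7859 and 11281 UMIs in members and 11265, 5529.5 and 10512 in the others of tumours 1, 2 and 4. In tumour 4 the neutrophil markers stood at 4773 CPM in the other C1q cells against 852 CPM in members, with S100a8 at 1980 against 288 CPM, and their part in the result was not tested. Without the block, or on mean deposited log2 values, 0 genes were called (207 and 397 at an unadjusted p under 0.05). Leaving out 1 tumour ended the call of Ccl24 (tumour 4), Sparc (4), Ifitm1 (2), Lgals3 (2), Il18bp (1), Plxdc2 (1), Gpx3 (1 or 4) and Hes1 (1 or 4), and the counts without tumours 1, 2 and 4 were 66, 64 and 54.

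Against monocyte-like cells the differences were larger. Those were cells with Lyz2 and at least 2 of Ccr2, Ly6c2, Plac8 and F13a1 detected, a C1q mean under 1, a mean of S100a8 and S100a9 under 3 and no Cd3e, and they numbered 39, 29, 0 and 252 in tumours 1 to 4. These genes and the 7 genes of the rule cut the classes and were left out of the test. Genes that go with them can differ through the choice itself, and how far they did was not tested. With tumours 1, 2 and 4 and the same model, 13 of 11343 genes (0.115%) were called, all higher in the microglia-like cells and 0 lower (0.0%), with 992 at an unadjusted p under 0.05 and a median over all genes of -0.11. Fcrls was at 504, 741 and 417 CPM against 3.55, 7.06 and 8.41 CPM (5.08 ± 0.28, adjusted p = 0.0127). Apoe was at 38668, 60667 and 34604 CPM against 923, 5310 and 2962 CPM (4.14 ± 0.37, adjusted p = 0.0391), and Trem2 at 586, 563 and 561 CPM against 13.5, 63.5 and 42.9 CPM (3.69 ± 0.36, adjusted p = 0.0459). Each of these 3 genes was higher in all 3 tumours, as were 11.1% of all genes.

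The other genes called were Timp2, an inhibitor of matrix proteases (4.24), Ccl12 (4.02), Olfml3 (3.86), Hpgds, a prostaglandin D synthase (3.08), Il18bp (3.01), Mt1 (2.80), Gdf3 (2.80), Ptgs1, a cyclooxygenase (2.77), Pld3 (2.52) and Cst7, a cystatin. Ccl12 stood at 461, 208 and 140.4 CPM against 4.96, 7.06 and 4.20 CPM. Of 22 homeostatic genes 3 were called, and of 27 lipid-handling genes 4, all higher, with medians of 1.42 and 1.86.

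The monocyte-like class of tumour 1 held cells with few myeloid transcripts: Tyrobp was at 367 CPM there against 3326 and 2024 CPM in tumours 2 and 4, and granule lineage markers at 2370 CPM. With a further limit, a mean value of Tyrobp and Fcer1g of at least 2, set after the data had been seen, 21, 28 and 211 monocyte-like cells remained, with median depths of 10428, 4267.5 and 10671 UMIs. All 13 genes were called again, and the count came to 494 of 9517 genes (5.19%), 175 higher (1.84%) and 319 lower (3.35%), with a median of 0.09 and 1863 at an unadjusted p under 0.05. Apoe was then higher by 3.47 ± 0.09 (adjusted p = 9.02e-10) and Trem2 by 2.99 ± 0.19 (adjusted p = 9.5e-06).

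With this limit, genes of lipid handling and lysosomes were higher in microglia-like cells. Of 27 lipid-handling genes 18 were higher and 1, Lgals3, lower, with a median of 1.76, and of 26 lysosomal genes 11 were higher and 0 lower, with a median of 0.66. Cd63, a tetraspanin of late endosomes, was at 1620, 2441 and 1255 CPM against 81.8, 67.6 and 147 CPM (4.05), and Ctsd at 5390, 5816 and 5159 CPM against 400.5, 1195 and 546 CPM (3.07). Of 22 homeostatic genes 12 were higher and 1, Selplg, lower, with a median of 1.19. Syngr1 (4.31), Cd81 (4.04), Gpnmb (3.27) and Sparc (3.20) were among the 12 largest differences. Of 12 growth factor genes 5 were higher and 0 lower: Igf1 (1.99), Pdgfa (1.27), Grn (0.88), Gas6 (1.82) and Spp1 (2.41).

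Genes lower than in these monocyte-like cells included genes of monocytes and dendritic cells. Of 18 genes of the monocyte-derived list 15 were lower and 0 higher, with a median of -2.46. The monocyte-like class was itself chosen by monocyte genes, and how much of this follows from that choice was not tested. Chi3l3 was at 10.4, 57.0 and 188 CPM against 698, 2622 and 759.8 CPM (-4.12 ± 0.63, adjusted p = 0.0164). S100a6 and S100a4, calcium-binding proteins, differed by -3.82 and -3.70, Ifitm6 by -4.07 and Ifitm1 by -3.51. Itgb7, an integrin chain, Napsa, Rnase6 and Lsp1 differed by -3.70, -3.53, -3.51 and -3.31. Of 9 dendritic markers 5 were lower and 1, Fscn1, higher. Xcr1, the chemokine receptor of cross-presenting dendritic cells, was at 0, 0 and 0.851 CPM against 142, 90.2 and 58.4 CPM, and H2-Oa differed by -3.42, so the monocyte-like class held dendritic transcripts.

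The remaining groups were split. Among 12 border macrophage genes, Pf4, Ms4a7, Cbr2 and Stab1 were higher and Clec10a was lower (median 0.86). Of 11 class II genes 0 were higher and 4, H2-DMb2, Ciita, H2-Oa and H2-Ob, lower (median -0.54), while H2-Aa, at 6629, 14568 and 10279 CPM against 14616, 10489 and 8775 CPM, was not called (adjusted p = 0.825). Of 25 interferon genes 1 was higher and 7 lower (-1.04), of 17 class I genes 0 and 5 (-0.37), and of 23 stress genes 1 and 8, with Fos, Junb and Dusp1 among the lower. Of 24 transcription factors, Bhlhe41 was higher and Irf8, Irf5, Runx1, Klf4 and Batf3 lower, and of 24 complement and phagocytic genes 7 were higher, with the clearance receptors Mertk and Axl among them, and 1, Itgb2, lower. Of 17 cytokine genes Ccl7, Ccl12 and Cxcl16 were higher and Ccl9 and Il1b lower. Siglech, in spite of its use as a microglia gene, was at 45.2, 0 and 52.3 CPM against 112, 128 and 143 CPM, a difference that was not called (-2.08, adjusted p = 0.0563). Under the class as first set, the count without tumour 2 was 1083, and without tumours 1 and 4 it was 43 and 120.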

How the data were processed

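Single-cell RNA sequencing covered 4 tumours, and the deposited values were log2 values, one table per tumour with genes in rows and cells in columns. The submitters' processing notes name Cell Ranger, Seurat and mm10 (versions not given in the sources used here). All deposited values were whole multiples of 1 step per cell on the linear scale (tolerance 1e-08, 100% of values), so UMI counts were worked out, which makes log2(UMIs / size factor + 1) the form of the deposited values, read from the values themselves. How multi-mapping reads were treated is not given in the sources used here, and the paralogous genes Chi3l3, Ifitm1, Ifitm6, Ccl12, Ccl7 and class II genes are uncertain. Doublets were not called: cells with at least 3 markers of 1 other lineage were left out in one alternative.

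UMIs were summed per tumour and class, scaled to CPM and compared as log2(CPM + 10) with limma 3.58.1 (R 4.3.3, statmod 1.5.0), with variance trend, robust moderation, tumour as block, two-sided Benjamini-Hochberg adjustment and a threshold of 0.05. Both classes of a pair come from the same tumour, which is where the pairing comes from. A tumour entered with at least 10 cells per class, and a gene when each entering tumour lists it and a mean of 5% or more of the cells in 1 of the classes have a UMI of it. Classes, intervals (scipy 1.17.1) and figures were made in Python 3.11.15 with pandas 2.3.3 and numpy 2.4.6. On simulated data, the comparison with other C1q cells (9949 genes, 100 changed by each size) recovered 11% of log2 changes of 1 and 83% of changes of 2, with 3 false among 97 calls. The comparison with monocyte-like cells (11343 genes) recovered 10% and 92%, with 3 false among 105. The changed genes were drawn from those with a mean of at least 50 CPM. Both classes shared 1 starting profile, and all genes had 1 fixed dispersion that was not taken from these data. In such simulated data changes of 1 were mostly missed, and recovery and false calls in the real comparisons may differ.

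Genes named are the 7 of the rule, up to 12 in each direction per comparison among called genes with one sign in every tumour and a mean of at least 50 CPM in either class, up to 4 called and the 3 most abundant of each list, the most abundant of each marker list, and Igf1, Apoe, Spp1, Csf1r, Trem2, Mki67, Ccr2, Mrc1, Cd74 and Sall1. Others, such as Siglech, P2ry13, Gpnmb, S100a8, Lyve1, Cd163, Cst7 and the list members named in the wider monocyte-like comparison, were chosen after their values were seen. A few genes that the rule names are not reported here. The members and lists were chosen with earlier results of these data known. Alternatives were another pseudocount, no filter, mean deposited log2 values, thinned cells, no block, leaving out each tumour, other thresholds of the rule, and leaving out possible doublets. Gene positions come from the RefSeq annotation of GRCm38.p6.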

Additional observations from a re-analysis of the deposited data

Results flagged for a closer look

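The limit for a far value is passed about 1 in 20 times by chance only for independent values of normal shape and equal variance. The levels here are not such values, as tumour 3 has 9 members and some genes have few UMIs, so that rate does not apply to them. In 12 of 93 quantities checked, 1 tumour lay far from the other 3 for its size of range. In tumour 3, with 9 members, these were Ctsd at 13214 CPM (others 5159 to 5816), Trem2 at 1454 (561 to 586), Il18bp at 669 (85.1 to 112), P2ry12 at 436 (84.3 to 115), Rnase4 at 436 (222 to 236), Gpr34 at 233 (66.0 to 88.9), Igf1 at 204 (19.1 to 41.7) and Cdh5, an endothelial cadherin, at 14.5 CPM (0 to 1.74), which is 1 UMI. In tumour 4 they were S100a9, a neutrophil granule protein, at 432 CPM (0 to 33.0) and Tgfb1 at 349 (233 to 250.3). In tumour 1 they were Bst2, a tetherin, at 210.3 CPM, below the others (363 to 389), and Col3a1, a collagen chain, at 6.95 CPM against 0 in each other tumour.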

How the results depend on the processing

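Tumours pair the classes by design. With no replicate block, 0 genes were called against other C1q cells and 12 against monocyte-like cells. Against other C1q cells (32 called), mean deposited log2 values gave 0, no filter on low genes 7, and leaving out 1 tumour 54 to 66. A pseudocount of 50 CPM (42), thinning to 6300 UMIs (43), at least 3 microglia genes (43) and leaving out possible doublets (33) kept the count within 1.5 times, and of the 32 genes 31, 20, 22 and 15 were called again. Ccl24 reversed without possible doublets, at 0.17, and the cause was not tested. Against monocyte-like cells (13 called), mean deposited log2 values gave 5, no filter 2, a pseudocount of 50 CPM 25, leaving out 1 tumour 43 to 1083, leaving out possible doublets 703 and the limit on Tyrobp and Fcer1g 494. Minima of 20 cells (13) and 3 microglia genes (15) changed little. In each of these the cause was not tested. Named genes kept their call in 98 and 106 gene-by-setting cases of the 2 comparisons and lost it in 79 and 26.

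The share of all cells was 2.76% in tumour 1 with thinned cells. Asking for 3 microglia genes gave 2.01%, 0.772% and 4.75% in tumours 1, 2 and 4, and asking for 1 gave 15.1% in tumour 4. The share of C1q cells was 47.8% and 52.9% in tumours 1 and 4 with thinned cells, 30.8%, 32.8% and 29.4% in tumours 1, 2 and 4 with 3 genes, 90.4%, 95.1%, 100% and 93.5% in tumours 1 to 4 with 1 gene, and 61.1% in tumour 4 with a C1q threshold of 1.5. Thinned monocyte-like cells, a minimum of 20 cells against other C1q cells, and every alternative of the planned comparison with C1q macrophages lacking microglia genes were not run, for want of cells. Depth limits the 4 microglia genes and Sall1, which rest on a few UMIs per cell, and tumour 3, where 1 UMI is 14.5 CPM.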
